A study of Rattus norvegicus with 15 samples.

Results

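The nuclear-encoded subunits of oxidative phosphorylation were followed in rat dorsal CA1, a field of the hippocampus, after contextual fear conditioning and under an siRNA label for Rnf20. Members were the genes whose symbol names a subunit of complex I (Nduf genes without the assembly factors), complex II (Sdh), complex III (Uqcr), complex IV (nuclear Cox genes) or complex V (Atp5), with a mean CPM (counts scaled to a common library size) of at least 1 over the 15 libraries. The symbols of 82 genes matched, and 78 of the 22314 genes in the table also reached the minimum. They were 36 genes of complex I, 4 of complex II, 8 of complex III, 14 of complex IV and 16 of complex V. No gene was listed under the symbols Cox7a2, Ndufa1, Ndufa10 or Atp5pb, so the complexes are not complete here. Cox7a1, Cox7b2, Cox8b and Ndufs6 fell below the minimum, at 0.65, 0.0368, 0.939 and 0.0981 CPM. Ndufs6, a subunit of complex I, had 24 counts over the 15 libraries, and this value may not be its level, because neither the annotation release nor the handling of overlapping genes is known. Cox8b lay just below it, and the lowest member, Cox6a2, lay just above it at 1.21 CPM. Assignment followed the symbol. Ndufa4 and Ndufa4l2 are therefore listed with complex I although the Ndufa4 protein is now placed in complex IV, Cox7a2l, a factor that joins complexes into supercomplexes, is listed with complex IV, and the inhibitor Atp5if1 with complex V. Cyc1 does not match the symbol pattern and was tested with the electron carriers, so complex III here means the Uqcr genes only.

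Oxidative phosphorylation makes most of a neuron's ATP. Complexes I and II take electrons from NADH and succinate, complex III passes them to cytochrome c, complex IV hands them to oxygen, and the proton gradient built by complexes I, III and IV drives the ATP synthase, complex V. Most subunits are encoded in the nucleus and imported, while the mitochondrial genome encodes a small set of membrane subunits, so each complex other than complex II joins the products of both genomes. Synaptic activity is costly in ATP, and hippocampal neurons depend on this pathway.

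All 15 libraries came from wild-type male Sprague-Dawley rats aged 8 to 9 weeks that had received an Accell siRNA (a type taken up by cells without a transfection reagent) in dorsal CA1, 5 days before the training of the trained groups. The naive scrambled group (replicates 1, 2, 9, 11 and 12) received scrambled siRNA without training, the trained scrambled group (5, 6, 10, 15 and 16) received scrambled siRNA and contextual fear conditioning, and the trained Rnf20-labelled group (4, 8, 14, 18 and 20) is labelled as having received siRNA against Rnf20, an enzyme that adds ubiquitin to histone H2B, with the same training. There was no naive group with Rnf20 siRNA, so the siRNA label was compared only among trained animals. The labels give neither the time from training to dissection nor whether each library came from its own animal, and p-values measure the spread between these samples, which may be partly technical.

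The Rnf20 transcript was at 41.8 ± 2.28 CPM in naive scrambled, 43.2 ± 5.39 in trained scrambled and 42.0 ± 2.32 in Rnf20-labelled libraries (SD, n = 5 each), a log2 difference of -0.04 ± 0.08 (SE) between the trained groups with adjusted p = 0.945 by edgeR's quasi-likelihood test with Benjamini-Hochberg adjustment. The targeted transcript was thus not measurably lower in the libraries labelled Rnf20 siRNA, and the group is called by its label throughout. Total counts ran from 12537250 to 20644425 per library. The tissue was a bulk dissection of all cell types. Fewer cells of a type and less RNA per cell cannot be told apart in it. All 12 neuron markers and all 5 CA1 pyramidal markers in the table were detected, but their levels were uneven. Summed CA1 pyramidal markers ran from 489 to 1050 CPM in naive, 294 to 1590 in trained scrambled and 517 to 899 in Rnf20-labelled libraries. Summed striatum markers ran from 170 to 438, 119 to 831 and 144 to 364 CPM in the same order. Trained scrambled replicate 10 had the lowest CA1 pyramidal score (5.35) and the highest striatum score (6.38) of the 15 libraries. Summed choroid plexus markers ran from 10.8 to 4370 CPM over the libraries. They scored lowest in trained scrambled replicates 5 and 16 and in Rnf20-labelled replicate 20, and the medians over the members are given with and without them. Haemoglobin and other blood genes summed to 156 to 264 CPM in naive libraries 225 to 1830 in trained scrambled ones and 181 to 757 in Rnf20-labelled ones.

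Promoters of the member with the smallest p across the 3 groups in complexes I, II and V are shown because each holds a different element of the kind long studied in genes of this pathway. The windows run from 250 bases before to 50 after the start, from RefSeq on assembly GRCr8, whereas the counts were made on Rnor_6.0. Capitals mark a YY1-type element (AAGATGGC) in Ndufa9, at chr4:161374121-161374420 on the minus strand, an ETS-type element (CCGGAAG) in Sdhb, at chr5:158547684-158547983 on the plus strand, and an NRF1-type element (GCGCA, any base, then GCGC) in Atp5mc2, at chr7:135678169-135678468 on the minus strand.
Ndufa9: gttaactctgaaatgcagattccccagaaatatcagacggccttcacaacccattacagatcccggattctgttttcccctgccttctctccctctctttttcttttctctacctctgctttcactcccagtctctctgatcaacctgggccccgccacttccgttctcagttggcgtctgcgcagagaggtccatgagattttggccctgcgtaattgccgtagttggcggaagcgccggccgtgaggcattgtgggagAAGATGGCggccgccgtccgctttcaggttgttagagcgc
Sdhb: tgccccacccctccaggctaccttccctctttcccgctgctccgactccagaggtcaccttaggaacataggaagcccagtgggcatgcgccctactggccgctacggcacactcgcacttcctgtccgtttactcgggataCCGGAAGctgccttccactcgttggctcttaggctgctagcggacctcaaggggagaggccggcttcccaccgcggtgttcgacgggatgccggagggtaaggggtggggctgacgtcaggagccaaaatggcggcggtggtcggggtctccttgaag
Atp5mc2: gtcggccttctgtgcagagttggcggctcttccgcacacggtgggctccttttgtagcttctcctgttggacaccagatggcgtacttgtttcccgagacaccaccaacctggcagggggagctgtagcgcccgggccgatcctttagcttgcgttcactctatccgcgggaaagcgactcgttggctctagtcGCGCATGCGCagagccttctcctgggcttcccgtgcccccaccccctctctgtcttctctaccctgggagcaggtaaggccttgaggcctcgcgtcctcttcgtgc
The element lies after the start in Ndufa9 and before it in Sdhb and Atp5mc2. Promoters were found for 68 of the 78 members. On either strand, 13 of them (19.1%) held the NRF1-type element, 19 (27.9%) the ETS-type element and 15 (22.1%) the YY1-type element, and 39 (57.4%) held at least 1 of the 3, so some held several. Among the 12311 promoters of genes tested, the shares were 8.5%, 15.2%, 4.8% and 25.1%, and among all 33469 promoters on record 4.25%, 8.75%, 3.17% and 14.6%. Complex V had the NRF1-type element in 5 of 15 promoters and complex IV in 0 of 11. A match describes the letters of the window and nothing about a factor's binding.

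None of the 78 members passed the test in any of the 3 comparisons. With edgeR's quasi-likelihood test fitted to all 14880 tested genes, 0 members passed an adjusted p of 0.05 in trained scrambled against naive scrambled, in Rnf20-labelled against trained scrambled, in Rnf20-labelled against naive scrambled, or in an F test among the 3 groups. In each of these 4 tests the share of all genes called was 0%. DESeq2 called 58, 1, 1 and 16 genes of the whole table and limma-voom 0 in every test, and neither called a member. At an unadjusted p under 0.05, 0, 1, 0 and 0 members passed, where 9.97%, 5.61%, 2.3% and 6.44% of all genes did. The groups did not overlap for 0 members in each of the comparisons, against 1.75%, 0.659% and 0.497% of all genes. The 3 comparisons share their samples in pairs, so they are not independent of each other.

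These genes were measured closely. Their median within-group SD was 0.13 on the log2 scale, against 0.22 for all genes tested. All genes were not matched to the members in abundance, here or in the shares that follow. For 74 of 78 members the 95% interval of the fold change lay within 1.5-fold of no change in every comparison, where 65.3%, 67.3% and 70.1% of all genes did so. The 4 exceptions in each comparison were Cox4i2, Cox6a2, Cox6b2 and Ndufa4l2, all below 5 CPM. Among the other 74 members the bounds ran from -22.1% (Atp5md) to 31.9% (Cox7b) with training, from -20.4% (Ndufa12) to 33% (Cox7b) under the Rnf20 label among trained libraries, and from -18% (Ndufa10l1) to 40.8% (Cox7b) in Rnf20-labelled against naive libraries. These bounds are the furthest interval ends of any of the 74 genes, not a limit that holds for each of them. The median half-width of an interval was 14.1% in each comparison. A difference smaller than a gene's own half-width could not be told from 0 with 5 libraries a group.

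**Figure D1:**
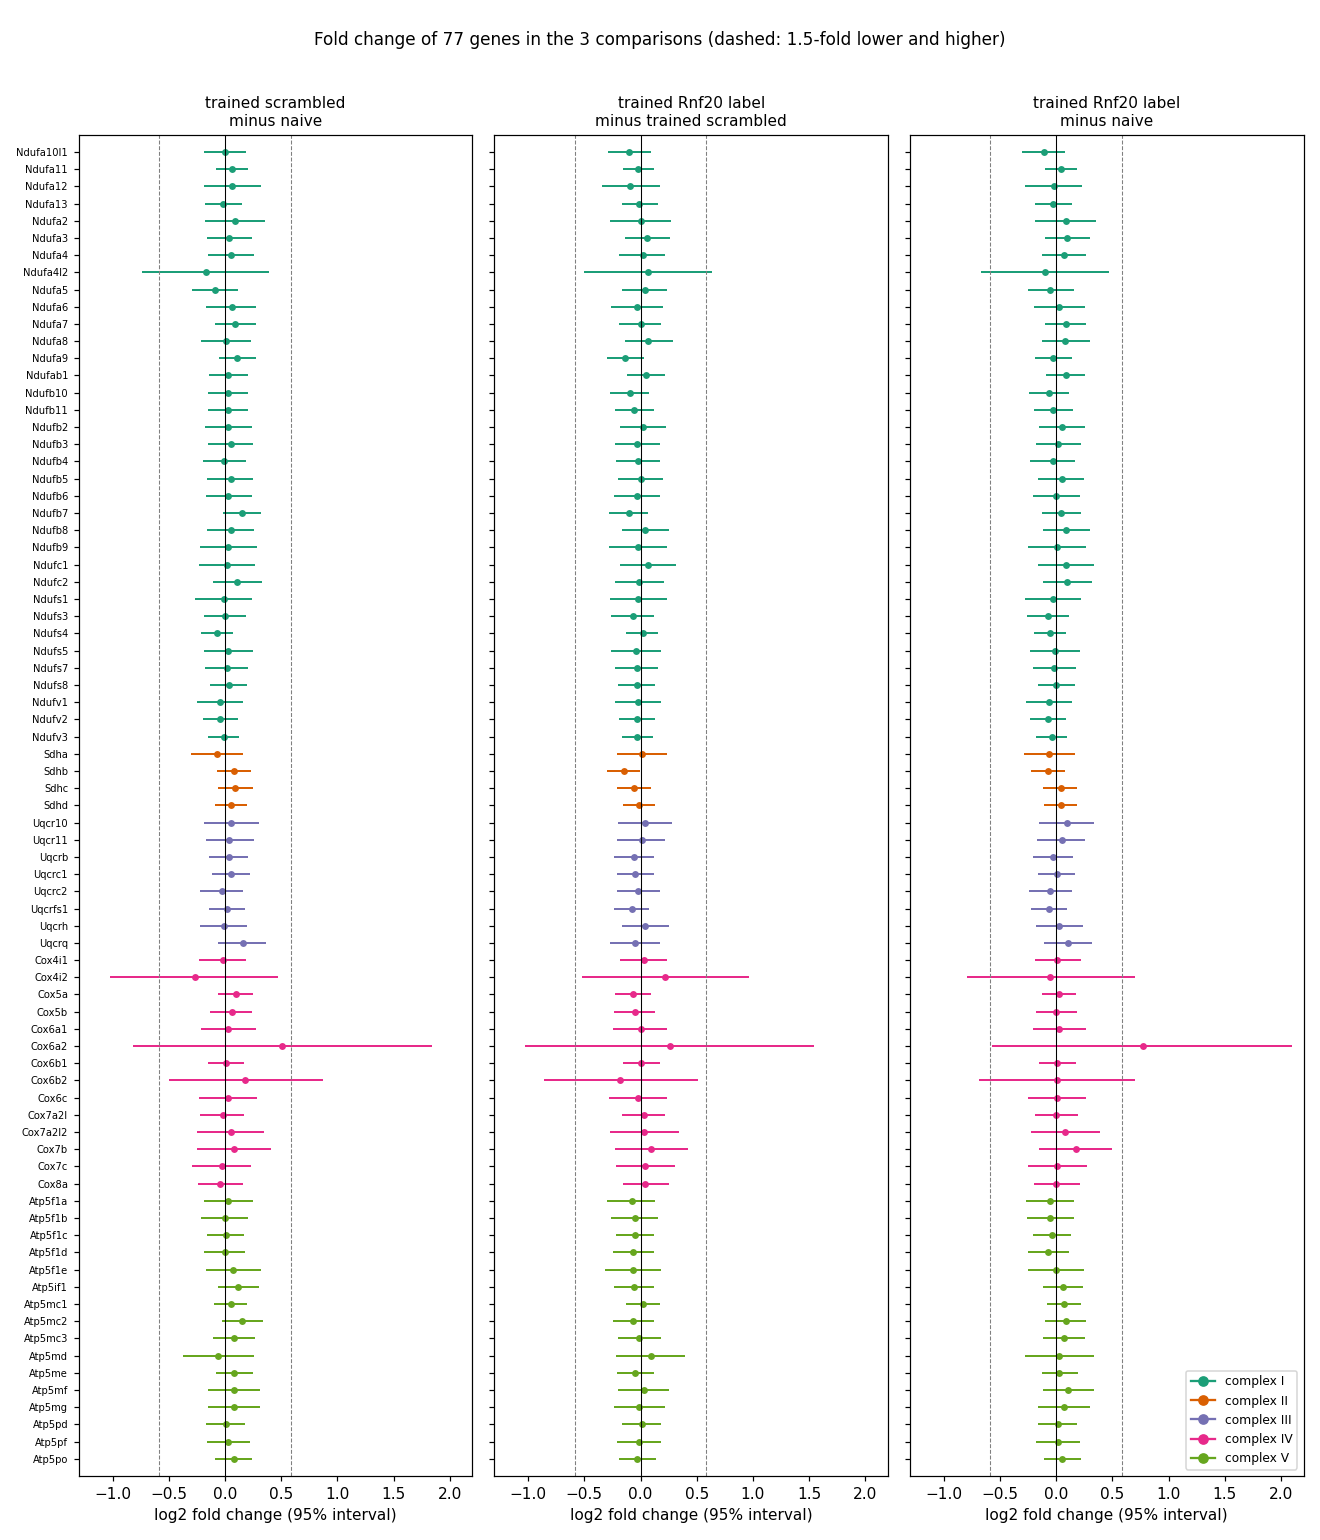
Log2 fold change (point) with its 95% interval (line) for 77 of the 78 genes, coloured by complex, in the 3 comparisons; dashed lines mark 1.5-fold lower and higher. Intervals of Cox4i2, Cox6a2, Cox6b2 and Ndufa4l2 extend beyond the dashed lines, and those of the other genes plotted stay between them in every comparison.

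With training, the median log2 difference of the members was 0.03, with 56 of 78 above 0, where all genes had a median of -0.01 with 7021 of 14880 above 0. The median was 0.03 in complex I (24 of 36 above 0), 0.07 in complex II (3 of 4), 0.04 in complex III (6 of 8), 0.03 in complex IV (9 of 14) and 0.06 in complex V (14 of 16). This direction rested on trained scrambled replicate 16: without it the median was -0.03 and 22 of 78 members were above 0, and without replicate 6 it was 0.08 with 66 above 0. Under the Rnf20 label among trained libraries the median was -0.02, with 28 of 78 above 0 (all genes 0.00), and it turned to 0.04 with 55 above 0 without trained scrambled replicate 16. By complex it was -0.02, -0.04, -0.03, 0.03 and -0.04 for I to V. When the 3 libraries of low choroid plexus score were left out, the median was -0.07 with training (15 of 78 above 0) and 0.06 under the Rnf20 label among trained libraries (60 of 78), so both directions turned, and 0 members were called. Against naive libraries the Rnf20-labelled group had a median of 0.01, with 50 of 78 above 0. Without the same 3 libraries that median was 0, with 36 of 78 above 0.

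**Figure D2:**
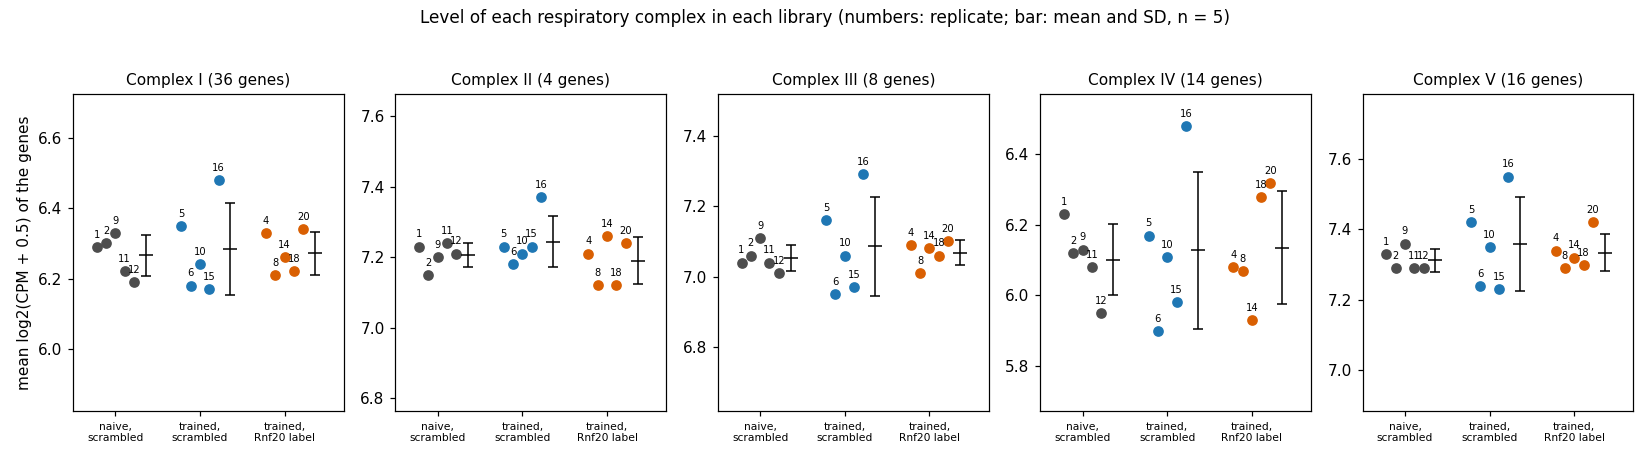
Mean log2(CPM + 0.5) over the genes of each complex in each library, with the replicate number above each point and the group mean and SD (n = 5) beside it. Trained scrambled replicate 16 is the highest library in all 5 complexes, at 6.48, 7.37, 7.29, 6.48 and 7.55 for I to V, and the 3 groups overlap in each complex.

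Complex I opens the chain, and its 7 nuclear core subunits carry the flavin and the iron-sulphur clusters. Ndufv1, which binds NADH, was at 150 ± 9.16 CPM in naive, 146 ± 12.8 in trained scrambled and 144 ± 18.2 in Rnf20-labelled libraries (SD, n = 5). Ndufs1, the largest core subunit, was at 166 ± 20.1, 164 ± 14.3 and 163 ± 26.6 CPM in the same order. Ndufv2, Ndufs3, Ndufs7 and Ndufs8, also core members, differed by at most 0.07 in log2 in each comparison. The core had a median log2 difference of -0.01 with training (2 of 7 above 0) and of -0.03 under the Rnf20 label among trained libraries (0 of 7 above 0), and no core gene had an F test p under 0.635. The 27 supernumerary subunits, which surround the core, had medians of 0.03 (21 above 0) and -0.02 (9 above 0).

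Ndufa9, a supernumerary subunit near the quinone site, had the smallest F test p of complex I. It was at 92.1, 88.4, 93.7, 87.2 and 98.7 CPM in the naive libraries (replicates 1, 2, 9, 11 and 12), at 102, 106, 91.1, 98.6 and 99.2 CPM in the trained scrambled ones (5, 6, 10, 15 and 16), and at 95.3, 83.1, 98.8, 79.4 and 95.6 CPM in the Rnf20-labelled ones (4, 8, 14, 18 and 20). Rnf20-labelled replicates 8 and 18 were the lowest libraries, trained scrambled 5 and 6 the highest, and the other libraries of the 3 groups interleaved. The log2 difference was 0.11 ± 0.07 (SE) with training and -0.14 ± 0.07 under the Rnf20 label among trained libraries, with adjusted p = 0.631 and 0.832 by edgeR. Ndufb7, a small subunit of the intermembrane side, was at 53.4 ± 2.98, 59.1 ± 6.27 and 55.0 ± 3.75 CPM, with a log2 difference of 0.15 ± 0.08 with training (adjusted p = 0.538 by edgeR, the smallest of any member in that comparison). Without trained scrambled replicate 16 the difference of Ndufb7 was 0.08, with adjusted p = 0.713 by edgeR. Ndufa10l1, whose reads may be shared with a close copy of Ndufa10, was at 129 ± 6.51, 128 ± 7.87 and 120 ± 15.1 CPM. Ndufa4 was at 171 ± 11.1, 178 ± 23.2 and 180 ± 12.5 CPM, and its low paralogue Ndufa4l2, a hypoxia-inducible gene, at 2.56 ± 0.736, 2.28 ± 0.419 and 2.39 ± 0.884.

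Complex II, succinate dehydrogenase, is wholly nuclear-encoded and also a step of the tricarboxylic acid cycle. Sdhb, its iron-sulphur subunit, held the smallest F test p of all members (0.0978) and was the member below an unadjusted p of 0.05 under the Rnf20 label among trained libraries. It was at 98.3, 91.2, 92.1, 96.9 and 90.9 CPM in naive, at 91.8, 95.6, 101, 101 and 108 CPM in trained scrambled, and at 92.4, 85.7, 85.1, 84.7 and 99.7 CPM in Rnf20-labelled libraries, in the replicate order above. Rnf20-labelled replicates 8, 14 and 18 lay below every other library, while 4 and 20 lay inside the range of the trained scrambled group. The log2 difference between the trained groups was -0.15 ± 0.07 (SE; 95% interval -0.29 to -0.01), with adjusted p = 0.832 by edgeR, so it did not pass the threshold. Its partner Sdha, the flavoprotein that oxidises succinate, was at 261 ± 12.8, 248 ± 30.2 and 251 ± 33.4 CPM. The membrane anchors Sdhc, at 153 ± 8.77, 163 ± 11.9 and 157 ± 5.2 CPM, and Sdhd, at 126 ± 4.62, 130 ± 7.65 and 129 ± 7.87 CPM, differed by at most 0.09 in log2 in any comparison.

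**Figure D3:**
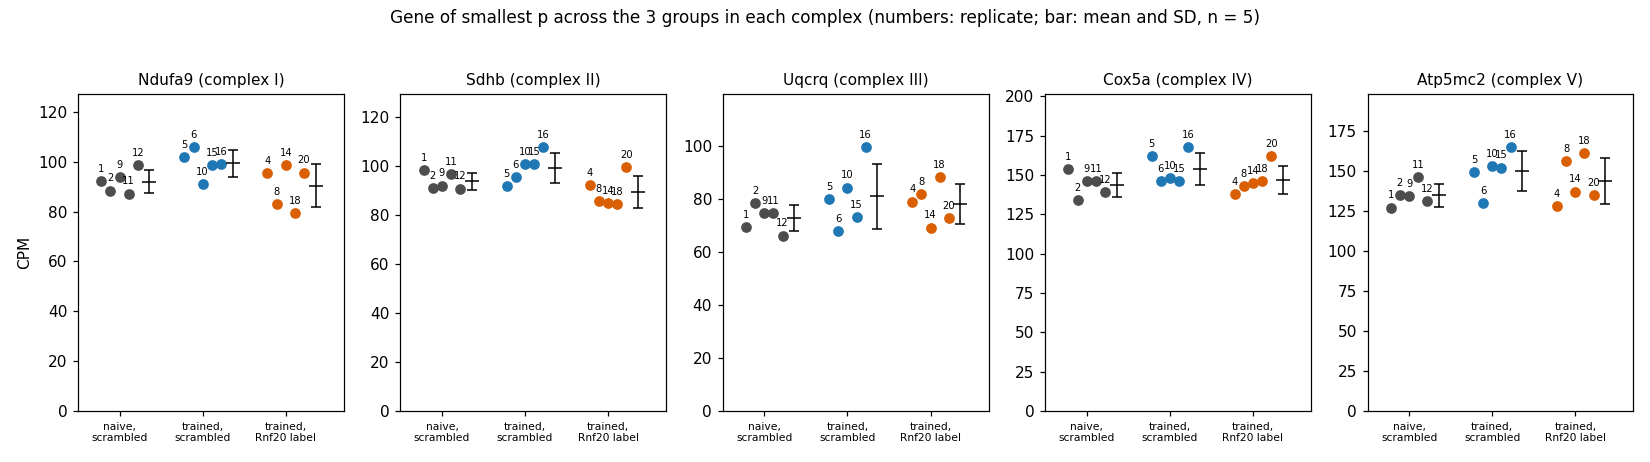
CPM in each library for the gene of smallest F test p in each complex, with the replicate number above each point and the group mean and SD (n = 5) beside it; axes start at 0. The groups overlap for all 5 genes, and Sdhb is lowest in Rnf20-labelled replicates 8, 14 and 18.

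Complex III was carried by Uqcrc1 and Uqcrc2, its core proteins, and Uqcrfs1, the Rieske iron-sulphur protein. Uqcrc1 was at 162 ± 7.08, 167 ± 10.6 and 162 ± 14.7 CPM, Uqcrc2 at 199 ± 14.4, 195 ± 10.9 and 192 ± 21.5, and Uqcrfs1 at 125 ± 6.85, 127 ± 10.5 and 120 ± 6.84. Differences of these 3 genes stayed between -0.08 and 0.05 in log2. Uqcrq, a small subunit beside cytochrome b, had the smallest p of the complex. It was at 69.4, 78.5, 74.6, 74.7 and 66.2 CPM in naive, at 79.8, 67.9, 84.3, 73.2 and 99.7 CPM in trained scrambled and at 79.0, 81.7, 69.2, 88.4 and 72.9 CPM in Rnf20-labelled libraries. Trained scrambled replicate 16 was the highest and the remaining 14 libraries overlapped between groups. The log2 difference with training was 0.16 ± 0.10 (SE), with adjusted p = 0.621 by edgeR. It rested largely on that library: without replicate 16 it was 0.07, with adjusted p = 0.821 by edgeR. Uqcr10, another small subunit, was at 110 ± 9.76, 114 ± 17.3 and 117 ± 14.0 CPM.

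Complex IV has nuclear subunits with tissue or condition isoforms around a core made by the mitochondrial genome. Cox4i1, the general isoform of subunit 4, was at 477 ± 21.0, 471 ± 70.2 and 482 ± 18.4 CPM, and Cox4i2, its hypoxia-responsive isoform, was low at 1.66 ± 0.166, 1.38 ± 0.385 and 1.60 ± 1.01. Cox5a, which has the smallest p among complex IV genes, was at 154, 134, 146, 146 and 139 CPM in naive, at 162, 146, 148, 146 and 168 CPM in trained scrambled and at 138, 143, 145, 146 and 162 CPM in Rnf20-labelled libraries. Trained scrambled replicates 5 and 16 and Rnf20-labelled replicate 20 were the 3 highest, and these are also the libraries of lowest choroid plexus score. The log2 difference of Cox5a with training was 0.10 ± 0.07 (SE, adjusted p = 0.662 by edgeR). It was 0.06 without replicate 16 (adjusted p = 0.788 by edgeR) and 0.03 without those 3 libraries (adjusted p = 0.898 by edgeR). Cox5b was at 173 ± 9.37, 180 ± 20.5 and 173 ± 9.95 CPM. The general isoforms Cox6a1, at 314 ± 25.6, 321 ± 58.4 and 320 ± 16.2 CPM, and Cox6b1, at 171 ± 3.56, 173 ± 17.4 and 173 ± 7.64 CPM, differed by at most 0.03 in log2.

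The heart and muscle isoform Cox6a2 was near the minimum, at 0.882 ± 0.55, 1.25 ± 0.619 and 1.5 ± 1.73 CPM. Its Rnf20-labelled mean rested on replicate 20, at 4.53 CPM, where the other 4 were between 0.25 and 1.17. Without that library its log2 difference against trained scrambled moved from 0.26 to -0.71 and against naive from 0.77 to -0.19. Cox6b2, the testis isoform, was at 2.29 ± 0.748, 2.6 ± 1.11 and 2.3 ± 0.824 CPM. Cox7b, a small membrane subunit, was at 85.3 ± 11.0, 90.3 ± 21.1 and 96.3 ± 13.5 CPM, with the widest interval among members above 5 CPM (log2 difference of 0.18, 95% interval -0.14 to 0.49, Rnf20-labelled against naive). Cox8a was at 237 ± 8.06, 231 ± 32.7 and 238 ± 13.9 CPM and Cox7a2l at 191 ± 9.51, 188 ± 23.1 and 192 ± 14.4. Reads of Cox7a2l2 may be split with a near-identical copy, so its level is uncertain.

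Complex V makes ATP in its F1 head, driven by a turning ring of c subunits. The catalytic beta subunit Atp5f1b was the most abundant member in counts, with group means that differed by at most 0.05 in log2, and the alpha subunit Atp5f1a was at 607 ± 47.3, 620 ± 46.3 and 585 ± 73.5 CPM. The c subunit is encoded by 3 genes that give the same mature protein. Atp5mc2, which had the smallest p of the complex, was at 127, 135, 134, 146 and 131 CPM in naive, at 149, 130, 153, 152 and 165 CPM in trained scrambled and at 128, 156, 137, 161 and 135 CPM in Rnf20-labelled libraries. Of the trained scrambled libraries 4 lay above every naive library and replicate 6 lay within the naive range, and the Rnf20-labelled libraries fell on both sides. The log2 difference with training was 0.15 ± 0.08 (SE; adjusted p = 0.55 by edgeR). Atp5mc1, at 103 ± 6.84, 107 ± 6.75 and 109 ± 4.89 CPM, and Atp5mc3, at 212 ± 14.6, 224 ± 19.5 and 223 ± 18.2 CPM, had log2 differences with training of 0.05 and 0.08. The inhibitor Atp5if1, which stops the synthase from running backwards, was at 102 ± 4.27, 110 ± 13.8 and 106 ± 4.53 CPM.

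Single libraries differed more than the groups did. The highest library was a median of 1.39 times the lowest for the members, against 1.77 times for all genes, and 59 members stayed under 1.5 times. Trained scrambled replicate 16 was the highest library for 52 of the 78 members and above the median of the 15 libraries for 77. Replicates 6 and 15 of the same group were above that median for 11 and 12 members, and replicate 6 was the lowest library for 25. The SD of the score over all members was accordingly 0.15 on the log2 scale in trained scrambled, 0.05 in naive and 0.06 in Rnf20-labelled libraries. The 3 groups overlapped in that score, at 6.51 to 6.63, 6.48 to 6.83 and 6.53 to 6.68 for naive, trained scrambled and Rnf20-labelled libraries.

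**Figure D4:**
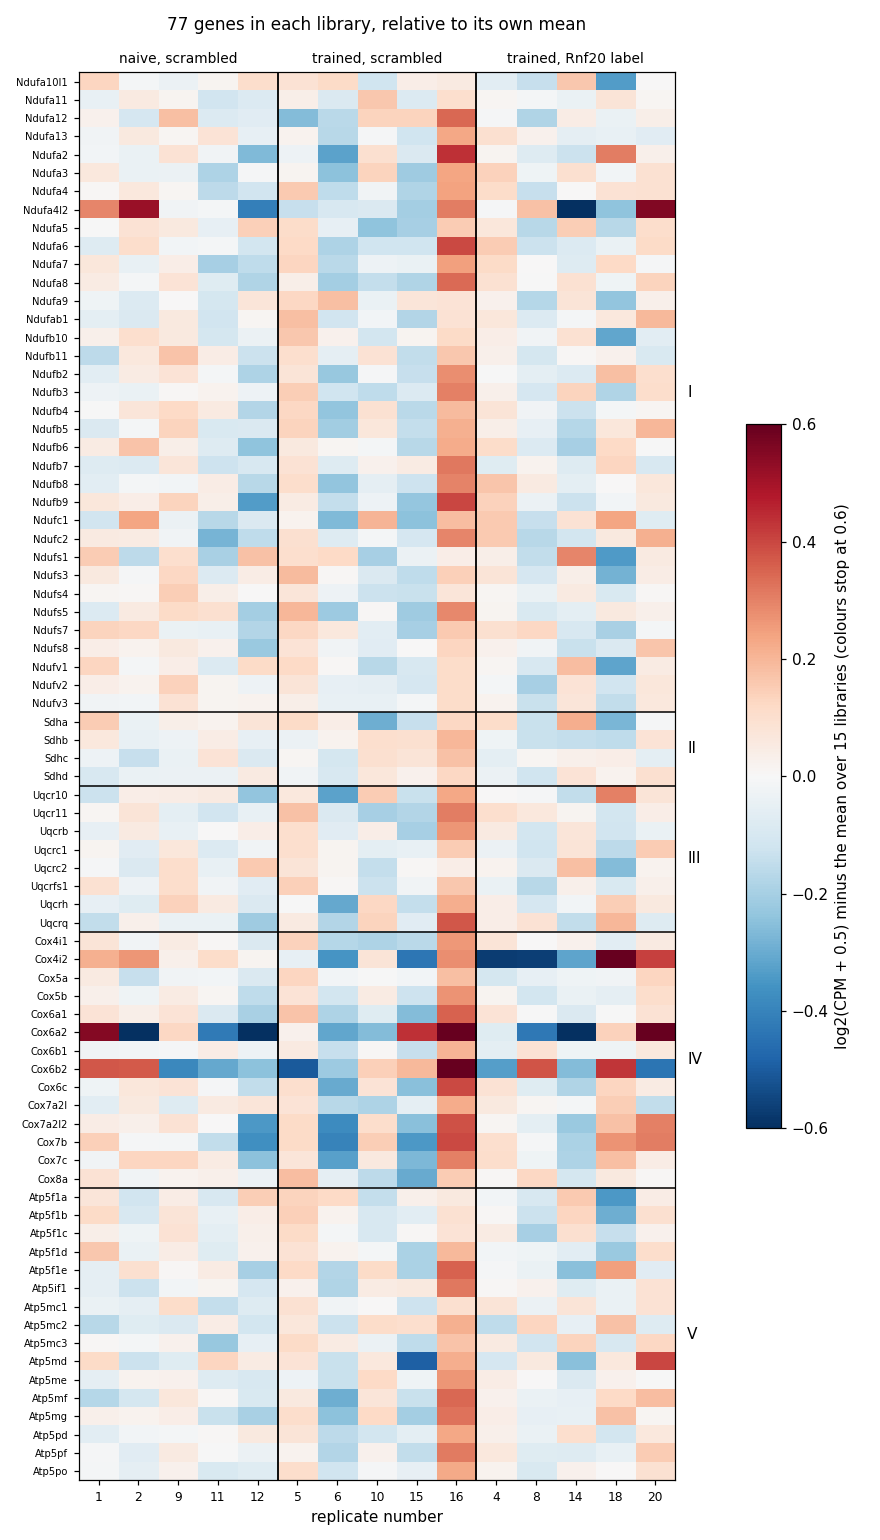
Each of 77 of the 78 genes (row) in each library (column), as log2(CPM + 0.5) minus the gene's own mean over the 15 libraries, grouped by complex (roman numerals) and by group; colours stop at 0.6. The column of trained scrambled replicate 16 is red for nearly all genes, those of replicates 6 and 15 are mostly blue, and the strongest colours belong to genes below 5 CPM.

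Members of a complex did not all vary alike between libraries. Over the 74 members above 5 CPM, the first principal component held 51.8% of the variance and had the same sign for 69 genes. Its loadings were high for Cox7b (0.28), Cox6c (0.21), Cox7c (0.20) and Ndufa2 (0.20), genes picked after the loadings were seen. They were near 0 for the core or catalytic subunits Ndufs1 (-0.04), Atp5f1a (-0.04), Uqcrc2 (-0.02), Sdha (0.01) and Ndufv1 (0.01), and also for the supernumerary genes Ndufa10l1 (-0.04), Ndufa9 (-0.02) and Ndufb10 (0.01). Within complex I no core subunit was above 0.07, where Ndufs7 and Ndufs8 lay, and most supernumerary subunits were above that value. Atp5f1e, a small subunit of the F1 part, was at 0.17. The loadings thus tended to be lower for core subunits, with exceptions on both sides. Rnf20-labelled replicate 18 was the lowest library for the complex I core score (6.60), for the complex III core and Rieske score (7.14) and for the F1 head (8.20), and the second highest for the small subunits of complex III (7.01), while its complex I supernumerary score (6.26) lay near the mean. In the same library the cytosolic ribosomal protein score was the highest (7.67), the neuron marker score was the lowest along with trained scrambled replicate 10 (7.69), and reactive glia markers scored 6.04, second to trained scrambled replicate 15. The part of these cell markers in these scores was not tested, and transcript lengths were not used here.

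**Figure D5:**
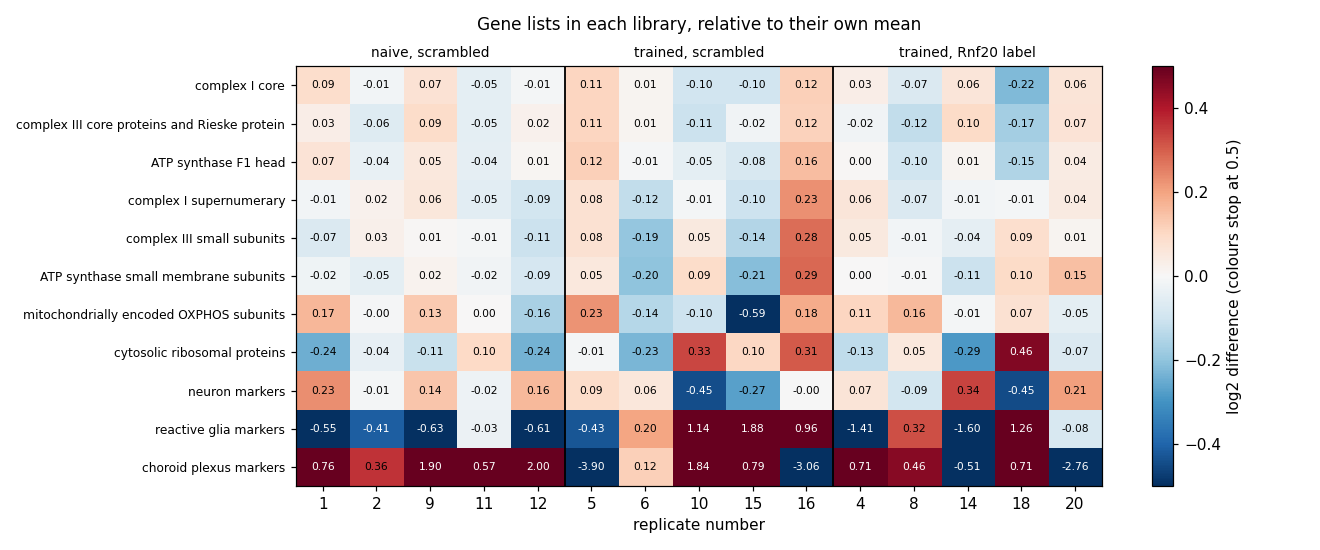
Score of each gene list in each library as a log2 difference from its own mean over the 15 libraries; colours stop at 0.5 and the printed values do not. In Rnf20-labelled replicate 18 the top 3 lists (core and catalytic subunits) are at -0.22, -0.17 and -0.15 while the small subunits of complexes III and V are at 0.09 and 0.10 and the supernumerary subunits of complex I at -0.008, and in trained scrambled replicate 16 all 6 subunit lists are above 0.

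The 13 subunits encoded by the mitochondrial genome were also tested, and 0 of 13 changed by edgeR, with 0 at an unadjusted p under 0.05. With training all 13 had differences below 0 (median -0.08), and under the Rnf20 label among trained libraries all 13 had differences above 0 (median 0.10), while the nuclear members had medians of 0.03 and -0.02. Both directions of the mitochondrially encoded genes rested on trained scrambled replicate 15: without it, a check chosen after seeing the data, the medians were 0.03 (9 of 13 above 0) and 0.01 (7 of 13 above 0). Without the 3 libraries of low choroid plexus score they were instead -0.29 (0 of 13 above 0) and 0.34 (13 of 13), with 6 and 8 genes at an unadjusted p under 0.05 and 0 called. These 13 transcripts are cut from shared precursors and move with any library that is high or low in mitochondrial reads. They took 11.6% ± 0.856 of counts in naive, 11.1% ± 1.97 in trained scrambled and 11.8% ± 0.728 in Rnf20-labelled libraries (SD, n = 5), and trained scrambled replicate 15 was the lowest at 8.47%. The nuclear members took 1.11% ± 0.0265, 1.15% ± 0.0886 and 1.11% ± 0.0372. Mt-nd5, a proton-pumping subunit of complex I, was at 5610 ± 437, 5220 ± 984 and 5970 ± 435 CPM, and Mt-nd4 had a log2 difference of -0.30 ± 0.19 (SE) with training (adjusted p = 0.627 by edgeR). Mt-nd4 was counted at only 240 ± 54.3, 195 ± 32.4 and 228 ± 62.4 CPM. As for Ndufs6, this may not be its level, because the annotation release and the handling of overlapping genes are not known.

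The other lists of the pathway gave no call by edgeR either. Of 46 assembly factors, 0 passed in any comparison and 0 had an unadjusted p under 0.05, with a median of -0.02 with training. Of 20 electron and metabolite carriers, Slc25a27, an uncoupling protein of brain, was at 32.1 ± 3.09, 24.2 ± 3.11 and 29.0 ± 5.09 CPM, with a log2 difference of -0.41 ± 0.12 (SE) with training and adjusted p = 0.379 by edgeR. Slc25a5, an ADP/ATP carrier, had a log2 difference of -0.16 ± 0.07 under the Rnf20 label among trained libraries (adjusted p = 0.832 by edgeR). The 19 genes of pyruvate dehydrogenase and the tricarboxylic acid cycle had a median of -0.01 with training, and Idh2, which makes mitochondrial NADPH, a log2 difference of -0.18 ± 0.08 under the Rnf20 label (adjusted p = 0.832 by edgeR). Of 19 regulators of mitochondrial biogenesis, Pprc1, a coactivator related to PGC-1, was at 26.9 ± 1.43, 31.4 ± 2.33 and 30.1 ± 1.75 CPM, and Polg, the mitochondrial DNA polymerase, at 37.4 ± 2.07, 43.9 ± 5.49 and 42.1 ± 2.53, both with an unadjusted p under 0.05 with training and adjusted p = 0.38 and 0.411 by edgeR. These were 2 of the 19 genes of that list, where 9.97% of all genes had such a p.

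No ribosomal protein gene of the cytosolic or the mitochondrial ribosome passed the test with training. Of the differences, 69 of 70 for cytosolic ribosomal protein genes were above 0 (median 0.20), and 5 genes had an unadjusted p under 0.05. Of the 71 mitochondrial ribosomal protein genes 58 were above 0 (median 0.05) and 4 had such a p, where 9.97% of all genes did. With each library left out in turn, the median of the cytosolic genes ran from 0.14 to 0.28. With 1 surrogate variable in the fit it was 0.03, with 48 of 70 above 0. In that fit 1 of the 70 had an unadjusted p under 0.05, where 12.3% of all genes did. The 17 glycolysis genes tested had a median of -0.06, with 7 above 0 and 0 called. No cell type marker passed the threshold in the same comparison. All 11 reactive glia markers were above 0 (median 1.25), all 12 neuron markers (median -0.20) and all 10 oligodendrocyte markers (median -0.26) were below 0, and the 7 choroid plexus markers had a median of -0.92. Neuronal lists differed: 4 of 5 CA1 pyramidal markers (median 0.05) and 1 of 7 parvalbumin interneuron markers (median -0.10) were above 0. So were 4 of 8 astrocyte (0.01), 6 of 7 striatum (0.27) and 3 of 5 ependyma markers (0.04). Eno2, in both the neuron and glycolysis lists, was low at 0.658, 0.43 and 0.64 CPM, and had the lowest log2 difference of both lists (-0.59). As for Ndufs6, this count may not be its level, because the annotation release and the handling of overlapping genes are not known. All 5 blood genes were above 0 (median 2.08) and all 5 had an unadjusted p under 0.05, 11 of 12 microglia markers were above 0 (median 0.46), and 0 of 8 endothelial and pericyte markers were (median -0.27). Such a p was also found for 7 of 11 reactive glia, 3 of 10 oligodendrocyte and 3 of 8 endothelial and pericyte markers. It was found for 2 of 8 astrocyte, 1 of 12 microglia and 1 of 5 ependyma markers as well. The other marker lists had 0. The part of these markers in the small differences of the members was not tested.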

How the data were processed

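The authors used Trim Galore for trimming, featureCounts 2.0.1 for read counts per gene (assembly Rnor_6.0) and DESeq2 for normalisation, per the submitters' processing notes. The aligner, the strand setting and the annotation release were not given in the sources used here. Libraries were made with a stranded mRNA kit and 14 cycles of PCR, per the labels' protocols. The deposited count table held 22314 genes. The deposited normalised signal was only compared with the counts: of 334710 values, 0 differed from the count over a median-ratio size factor at a relative tolerance of 1e-06. The counts of every pair of replicates differed by more than sampling noise.

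In R 4.3.3, edgeR 4.0.16 (filterByExpr, TMM, quasi-likelihood, 12 residual degrees of freedom) was fitted to all 15 libraries and 14880 genes, with Benjamini-Hochberg adjustment over all of them and a threshold of 0.05. CPM uses TMM-scaled library sizes, and scores are means of log2(CPM + 0.5). Alternatives were DESeq2 1.42.0, limma 3.58.1 (voom), other scalings and filters, a surrogate variable (sva 3.50.0), fits on the groups compared, each library left out, and 2 sets of libraries left out. Leaving out libraries for the mitochondrially encoded and ribosomal lists was added after seeing the data. Members, lists and alternatives were chosen with earlier results of these data known. Genes were named by rule: the 3 of smallest F test p in each complex, core subunits, tissue isoforms and, of other lists, the 2 of smallest F test p; genes named for loadings, bounds or other extremes were chosen after their values were seen. Promoters were matched by symbol or older symbol. Levels of different genes were not compared, since gene lengths were not used, and protein sequences were not used here. The values of 1 member are not reported here by name; it is counted in all totals and scores.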

Additional observations from a re-analysis of the deposited data

Results flagged for a closer look

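Of 129 sets of 5 libraries examined, 5 had a library far from the other 4, and chance gives about 1 in 20. In naive libraries, Ndufb7 was high in replicate 9 (58.5 CPM, the others 51.0 to 52.7), and Ndufs8, an iron-sulphur core subunit of complex I, was low in replicate 12 (51.6 CPM, the others 61.1 to 62.9). In trained scrambled replicate 16, Ndufa4l2 was high (3.01 CPM, the others 1.96 to 2.17), as was the complex II score (7.37, the others 7.18 to 7.23). In Rnf20-labelled replicate 20, Cox6a2 was high (4.53 CPM, the others 0.25 to 1.17).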

How the results depend on the processing

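No member was called under any of the alternatives run (25 settings for each comparison and 24 for the F test); the smallest adjusted p of a member was 0.183 with training, 0.405 between the trained groups, 0.999 against naive and 0.356 in the F test, and at most 4, 6, 1 and 4 members had an unadjusted p under 0.05. When the 3 libraries with the lowest choroid plexus scores were left out (trained scrambled 5 and 16, Rnf20-labelled 20), the median with training was -0.07 for all members, -0.07 for complex I, 0.05 for II, -0.06 for III, -0.14 for IV and -0.05 for V, and between the trained groups 0.06, -0.01, 0.07, 0.16 and 0.05 for I to V; the cause was not tested. Without 4 other libraries (trained scrambled 10 and 15, Rnf20-labelled 14 and 18) the median with training was 0.10 for all members (75 of 78 above 0) and between the trained groups -0.08 (10 of 78). These 4 were picked from the data as far out on a first principal component. On the first component of the members above 5 CPM, trained scrambled replicates 16 (1.98) and 6 (-1.32) lay furthest out instead. With each library left out in turn, the median of all members ran from -0.03 to 0.08 with training, from -0.05 to 0.04 between the trained groups and from 0.01 to 0.04 against naive. Of the values for all members and for each complex, 6 moved by more than the spread between replicates and 543 did not. The 543 include the counts of members called, which were 0 in every setting. For the medians that spread was 0.06 to 0.17 in log2, so a change of sign could count as not moved. The turn of the training median from 0.03 to -0.03 without trained scrambled replicate 16 is an example. Of the values for single genes, 13 moved and 2837 did not. Over all settings the median of all genes lay between -0.02 and 0.02. Upper-quartile scaling put 63 of 78 members above 0 with training (median 0.05), where the main fit had 56. No paired analysis was possible because the groups share no replicate number. With 5 libraries a group, the 4 members below 5 CPM had intervals wider than 1.5-fold.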
